A study of Mus musculus with 4 samples.

Results

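The clade B serpins were followed in single cells of adult mouse epidermis after deletion of ΔNp63, the N-terminally truncated isoform of the p63 transcription factor. Members were all genes whose symbol is Serpinb followed by a digit, which gave 27 of the 32285 genes in the 4 count matrices. Within a time point a member was counted when both libraries together held 20 or more UMIs (unique molecular identifiers, 1 per captured RNA molecule). By that rule 15 of 27 were counted at 1 day, among 15518 genes in all, and 16 of 27 at 1 week, among 16128.

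Control mice were DNp63fl/fl, and experimental mice were DNp63fl/fl;K14-CreT2, in which the K14 promoter directs an inducible Cre to basal keratinocytes. Both genotypes received tamoxifen at 200 mg/kg by oral gavage, given once a day, so the drug was common to all groups. Mice were 2 to 17 months old, males and females in equal number, and cells were taken 1 day or 1 week after ablation. Back skin was clipped, treated with hair remover and incubated in 0.25% trypsin at 4 or 37 °C. Which temperature a library had, and how many animals it holds, is not stated in the labels. Each of the 4 groups (control and experimental at each time) was 1 droplet library, so there was no replicate and no test between groups, and "rose" and "fell" mean only a difference of 2-fold or more between a pair of libraries. A 3′ kit was used at 1 day and a 5′ kit at 1 week, so time and kit cannot be told apart and only libraries of the same time were compared.

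Serpins inhibit proteases by a trap: the protease cuts a loop of the serpin, and the serpin then folds and locks the enzyme in a covalent complex. Clade B members lack a classical secretion signal and act mostly inside the cell, where they block proteases that leak from lysosomes or granules, although some leave the cell and act on trypsin-like proteases and plasminogen activators outside it. In mice their genes lie in a cluster on chromosome 1, which holds members typical of squamous epithelium, and a cluster on chromosome 13, where the families of Serpinb1, Serpinb6 and Serpinb9 have multiplied.

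The upstream sequences of Serpinb3a, Serpinb3b and Serpinb3c are shown first because these neighbouring copies are close in sequence yet differed in the libraries. They are the mouse counterparts of the human squamous cell carcinoma antigens, inhibitors of papain-like and chymotrypsin-like proteases. Each run is the 250 bases before the RefSeq start on GRCm38.p6, 5′ to 3′ on the gene's own strand, which is the minus strand for all 3 genes: chr1:107052304-107052553 for Serpinb3a, chr1:107161115-107161364 for Serpinb3b and chr1:107278372-107278621 for Serpinb3c. Capitals mark bases that differ from an aligned partner, which is Serpinb3b for Serpinb3a, Serpinb3a for Serpinb3b, and Serpinb3b for Serpinb3c. Runs of capitals at an end are bases without a partner, since the annotated starts are offset. Serpinb3b was 77.01% identical to Serpinb3a and 88.1% identical to Serpinb3c over the alignment, gaps included. The gaps take in the offset ends, so these values are lower than the identity of the paired bases.
Serpinb3a: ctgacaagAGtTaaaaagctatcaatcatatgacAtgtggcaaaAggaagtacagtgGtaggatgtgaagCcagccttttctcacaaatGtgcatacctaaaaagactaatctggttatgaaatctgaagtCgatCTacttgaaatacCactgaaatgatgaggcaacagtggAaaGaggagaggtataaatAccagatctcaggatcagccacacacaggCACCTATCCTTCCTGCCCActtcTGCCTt
Serpinb3b: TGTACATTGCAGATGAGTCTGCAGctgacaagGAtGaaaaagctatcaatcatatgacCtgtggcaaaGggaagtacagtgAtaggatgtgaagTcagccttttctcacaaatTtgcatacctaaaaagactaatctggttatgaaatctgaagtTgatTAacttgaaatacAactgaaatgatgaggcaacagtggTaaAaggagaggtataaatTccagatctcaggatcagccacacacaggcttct
Serpinb3c: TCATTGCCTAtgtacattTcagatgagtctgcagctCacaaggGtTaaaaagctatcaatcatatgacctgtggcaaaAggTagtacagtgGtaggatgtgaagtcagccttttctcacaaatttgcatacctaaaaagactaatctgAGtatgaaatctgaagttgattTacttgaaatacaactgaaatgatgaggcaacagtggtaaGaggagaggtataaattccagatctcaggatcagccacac

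RefSeq promoter sequences were matched for 25 of the 27 members, as 31 annotated starts. An AP-1 motif, spelled TGANTCA on both strands, lay in the 250 bases before the start in 7 of these 31 promoters, from 6 members, against 6.75% of 32851 mouse promoters searched in the same way. The windows of the Serpinb2 starts overlap and hold the same site, which is therefore counted more than once. All of these members, Serpinb2, Serpinb5, Serpinb7, Serpinb8, Serpinb11 and Serpinb12, lie on chromosome 1. They are shown because they include the members with the clearest pattern by keratinocyte layer. The 150 bases before the start are printed, on the plus strand of GRCm38.p6, with the motif in capitals: chr1:107511273-107511422 (Serpinb2), chr1:106861025-106861174 (Serpinb5), chr1:107422539-107422688 (Serpinb7), chr1:107589856-107590005 (Serpinb8), chr1:107362164-107362313 (Serpinb11) and chr1:106934299-106934448 (Serpinb12). A pattern of p53-family half-site cores, searched on both strands, matched 9 of the 31 member promoters and 63.5% of all promoters. A match is a run of letters and not a measured site.
Serpinb2: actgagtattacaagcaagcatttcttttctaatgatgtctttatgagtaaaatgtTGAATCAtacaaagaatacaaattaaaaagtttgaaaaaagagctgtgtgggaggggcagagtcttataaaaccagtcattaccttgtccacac
Serpinb5: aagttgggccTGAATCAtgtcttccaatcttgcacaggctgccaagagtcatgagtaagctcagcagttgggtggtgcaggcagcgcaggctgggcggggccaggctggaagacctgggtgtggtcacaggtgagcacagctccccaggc
Serpinb7: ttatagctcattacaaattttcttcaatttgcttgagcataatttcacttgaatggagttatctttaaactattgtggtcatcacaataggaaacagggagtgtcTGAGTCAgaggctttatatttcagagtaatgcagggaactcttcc
Serpinb8: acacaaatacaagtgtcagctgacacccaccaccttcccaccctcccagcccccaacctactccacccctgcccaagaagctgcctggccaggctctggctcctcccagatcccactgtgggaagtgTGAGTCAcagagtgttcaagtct
Serpinb11: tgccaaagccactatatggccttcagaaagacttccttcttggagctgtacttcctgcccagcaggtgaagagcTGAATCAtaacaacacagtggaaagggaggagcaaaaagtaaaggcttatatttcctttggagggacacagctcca
Serpinb12: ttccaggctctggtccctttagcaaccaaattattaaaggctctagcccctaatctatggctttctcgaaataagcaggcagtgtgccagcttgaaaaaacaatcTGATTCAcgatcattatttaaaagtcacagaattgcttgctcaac

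The 4 libraries held 68191870 to 179736563 gene UMIs on 18413 to 33552 barcodes. Libraries of the same time shared 299 barcode sequences at 1 day and 661 at 1 week, and pairs from different times shared 9 to 18. Barcodes resembling free RNA, the RNA that leaks from broken cells into every droplet, made up 24.8% to 72.4% of those passing filters, the most in the experimental library at 1 week. They were left out of the classes at 1 week and stayed in at 1 day. Clusters were named from marker genes as basal-like, spinous-like, granular-like, upper hair follicle-like, bulge-like (bulge and outer root sheath markers), sebaceous-like and cycling, with serpins kept out of the clustering. There were 21094 control and 15705 experimental keratinocytes at 1 day. The 1 week libraries held 6198 and 2849. Keratinocytes at both times include clusters that met no layer rule, the Krt6b-led ones described below among them. Those clusters held 2828 control and 7164 experimental cells at 1 day, and 1432 and 673 at 1 week. Such cells enter the values over all keratinocytes but no layer, and equal weighting of layers leaves them out. Cells rich in Krt8, a keratin of simple epithelia, formed a class of their own that held 4528 experimental and 7 control cells 1 day after ablation. The same class held 393 and 3 cells at 1 week. Trp63, which encodes p63, was at 403 CPM (UMIs per 1000000 gene UMIs) in control and 124 CPM in experimental keratinocytes at 1 day, and at 439.9 and 156 CPM at 1 week. The tags counted are not tied to the deleted exons, so Trp63 does not measure the deletion itself. Few cells were named basal-like and spinous-like in the experimental library at 1 week, 15 and 11 against 1998 and 1088. Their values there are thus imprecise. Clusters 2 and 15 at 1 week, with 344 and 258 experimental cells, scored highest for basal and spinous markers but met no layer rule. The low numbers are thus not a measure of cell loss.

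Of the 27 members, Serpinb3d, Serpinb9c, Serpinb9d, Serpinb9e, Serpinb9f, Serpinb9g and Serpinb9h had no UMI in any library. Serpinb1b, Serpinb6d, Serpinb6e and Serpinb9b had 4 to 16 UMIs per time point and were not counted. Serpinb1c passed at 1 week with 54 UMIs but not at 1 day with 14. Serpinb3c was counted at both times, with only 20 UMIs at 1 day and 42 at 1 week. The remaining 14 members were counted at both times with 54 to 1274351 UMIs. Near-identical copies make some of these counts uncertain, since the counting by the authors' software could leave out or misplace reads shared by copies. In the GENCODE M21 transcripts, 51.6% of the 31-base words in the first 500 bases of Serpinb3a transcripts also occurred in another gene, chiefly a neighbouring pseudogene, Serpinb3b and Serpinb3c, against 19.9% in the last 500 bases. The gene span of Serpinb3b (chr1:107153940-107278361) also contains most of Serpinb3c. In Serpinb9f the share in the last 500 bases was 100%. No such word was shared by Serpinb5, Serpinb7, Serpinb11 or Serpinb12.

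In keratinocytes as a whole, Serpinb3a had the highest ratio of experimental over control at both times. At 1 day 4 of 14 counted members were 2-fold or more higher in experimental keratinocytes, where 6.18% of 14767 genes were, namely Serpinb3a, Serpinb7, Serpinb6c and Serpinb11. Another 3 of 14 (Serpinb12, Serpinb3b and Serpinb13) were 2-fold or more lower, where 3.36% of genes were. At 1 week 7 of 16 were higher (background 11.4% of 14427 genes): Serpinb3a, Serpinb6c, Serpinb3c, Serpinb1c, Serpinb11, Serpinb3b and Serpinb7. Only Serpinb2 and Serpinb13 of 16 were lower by that fold (background 6.9%). The median log2 ratio (experimental over control) of the counted members was 0.10 at 1 day, against -0.01 for all genes, and 0.63 at 1 week, against 0.11. At 1 week Serpinb3c (0 control and 42 experimental UMIs over all cells) and Serpinb1c (12 and 42) reached the UMI minimum only through the experimental library. Serpinb13 (49 and 5) reached it only through the control library. The direction of these sparse members was thus partly set by that minimum, which applied to all genes too. The 1 week counts and median rest partly on them, and no value without them was set against the background. The 1 week median was 0.18 with layers weighted equally (5 layers, basal-like and spinous-like not among them) and 0.059 without the Krt6b-led clusters described below. With layers weighted equally, the numbers higher were 1 of 14 at 1 day, over 7 layers, and 2 of 11 at 1 week, over those 5. The numbers lower were 2 of 14, without Serpinb13, and 0 of 11. No share or median of all genes is given here for equal weighting or without the Krt6b-led clusters. These counts and medians are thus not set against a background.

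**Figure D1:**
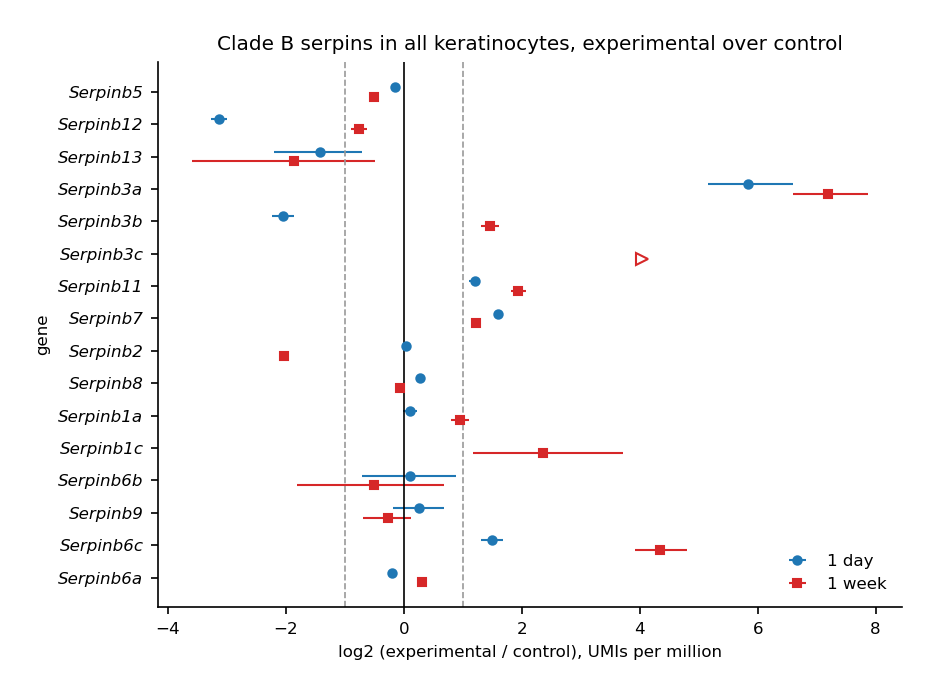
Log2 ratio of each counted clade B serpin in keratinocytes, experimental over control, at 1 day and 1 week (horizontal axis), with points at the ratio, bars for the exact 95% interval of counting error and dashed lines at 2-fold. Serpinb3a lies farthest to the right at both times, and the open triangle for Serpinb3c at 1 week is a lower bound because the control held no UMI.

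Serpinb3a was nearly absent from control keratinocytes and was counted almost entirely in experimental ones. At 1 day it stood at 0.161 CPM in control (18 UMIs) and 9.12 CPM in experimental keratinocytes (653 UMIs), a log2 ratio of 5.83 with a 95% interval of 5.16 to 6.59. All such intervals are exact and cover counting error only, not the variation between animals. The levels at 1 week were 0.436 and 63.9 CPM, on 22 and 1965 UMIs, and the log2 ratio was 7.20 (6.59 to 7.87). Both control libraries were thus low and both experimental libraries high.

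Over all keratinocytes the close neighbour Serpinb3b had ratios of opposite sign at the 2 times, although without the Krt6b-led clusters described next it was lower at both, at -2.61 and -0.83. At 1 day it fell from 15.9 to 3.84 CPM, a log2 ratio of -2.05 (-2.24 to -1.87), or -1.14 with layers weighted equally. The 1 week levels were 10.9 CPM in control and 30.1 CPM in experimental keratinocytes, a log2 ratio of 1.46 (1.31 to 1.62). Serpinb3c had 0 UMIs in control and 30 in experimental keratinocytes at 1 week, at least 16.4-fold higher when 3 UMIs are taken as the floor of the control sum. The kits read opposite transcript ends, and the share of words common to copies differs between those ends, as given above for Serpinb3a. Its part in the difference between times was not tested.

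Most Serpinb3a came from small groups of cells whose leading gene was Krt6b, a keratin of wounded and hyperproliferating epidermis. At 1 day this was cluster 19, with 36 control and 490 experimental cells, which made up 2.42% of experimental keratinocytes and Krt8-high cells but held 84.4% of their Serpinb3a UMIs (exact 95% binomial interval 81.4% to 87.1%). Serpinb3a was at 176 CPM (162 to 191) there in the experimental library and 15.9 CPM (6.41 to 32.8) in the control library. Serpinb3a was thus present in the same cluster of the control library at a lower level, where its 36 cells held 7 of all 18 control UMIs of the gene.

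At 1 week cluster 15 (1 control and 258 experimental cells) and cluster 35 (70 experimental cells, no control cell) were the keratinocyte clusters led by Krt6b. Cluster 10 (9 control and 353 experimental cells) was led by Krt6b too, but lay near the free RNA profile and was left unnamed and not counted among the keratinocytes. Serpinb3a stood at 273 CPM (259.8 to 286) in cluster 15 and 810.2 CPM (705 to 927) in cluster 35 of the experimental library. These clusters held 83.6% and 10.7% of its UMIs in 7.96% and 2.16% of the experimental keratinocytes and Krt8-high cells. Without the Krt6b-led clusters the log2 ratio of Serpinb3a was 3.82 at 1 day and 3.14 at 1 week, an alternative chosen after the data were seen. Cluster 15 had a median of 23340 UMIs per cell, and removed doublet calls whose nearest cells lay there were 8.48% of its cells and calls together. In barcodes resembling free RNA, Serpinb3a was at 93.3 CPM in the experimental and 0.163 CPM in the control library at 1 week, so low levels outside these clusters, such as 11.5 CPM in experimental cycling cells, lay below free RNA.

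Serpinb3b and Serpinb6c shared part of that distribution. Serpinb3b in the control library at 1 day was a gene of spinous-like cells at 40.3 CPM, and it was 14.0 CPM in experimental spinous-like cells, a log2 ratio of -1.52 (-1.90 to -1.17). Over antibody hashtags, described further on, it ran from 33.7 to 53.5 CPM in control spinous-like cells. In experimental ones it ran from 6.98 to 44.0 CPM, an overlapping range. In cluster 19 it was 27.3 CPM in control and 30.6 CPM in experimental cells, with overlapping intervals of 14.1 to 47.7 and 24.8 to 37.3. At 1 week clusters 15 and 35 reached 114 and 302 CPM, cluster 15 alone held 74.9% of the experimental UMIs of Serpinb3b, and without the Krt6b-led clusters its log2 ratio turned to -0.83. With the 5 layers that had 50 or more cells in both libraries weighted equally, which leaves out the Krt6b-led clusters too, the 1 week log2 ratio was 2.12, so these alternatives gave opposite signs. Upper follicle-like, bulge-like and cycling experimental cells at 1 week had 6.94, 6.28 and 10.96 CPM, all below the 42.2 CPM of free RNA-like barcodes.

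Serpinb6c, a paralogue of the cathepsin G inhibitor Serpinb6a, stood at 3.16 CPM in control and 8.93 CPM in experimental keratinocytes at 1 day, a log2 ratio of 1.5 (1.31 to 1.69). The 1 week levels were 0.95 and 19.3 CPM, a log2 ratio of 4.34 (3.92 to 4.80). Cluster 19 held 36.1% of its experimental UMIs at 1 day, where control and experimental levels were 59.2 and 77.9 CPM with overlapping intervals (38.7 to 86.7 and 68.5 to 88.2). In clusters 15 and 35 at 1 week it was at 81.0 and 138 CPM, and cluster 15 held 76.7% of its UMIs. Leaving out the Krt6b-led clusters lowered its log2 ratio to 0.96 at 1 day, below 2-fold, and to 1.44 at 1 week. With layers weighted equally it was 0.80 at 1 day and 0.66 at 1 week, below 2-fold at both times. In cluster 19 the intervals of the libraries thus overlapped for Serpinb6c, while those for Serpinb3a did not.

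Serpinb11 (epipin), whose mouse protein inhibits trypsin-like proteases, was a follicle gene in control skin. At 1 day it was at 115 CPM in control bulge-like cells and at 1.44 CPM in spinous-like, 0.89 CPM in basal-like and 10.4 CPM in upper follicle-like cells. Cluster 14, a bulge-like cluster of 716 control cells led by Aspn and Pthlh, held 43.7% of the control UMIs of Serpinb11 in 3.39% of the cells. As whole libraries, bulge-like cells differed little, at 135 CPM in the experimental library at 1 day (log2 ratio 0.23, interval 0.11 to 0.35) and at 129 and 131 CPM in control and experimental cells at 1 week (0.02, interval -0.15 to 0.19). In the cells assigned to antibody hashtags at 1 day, described further on, bulge-like Serpinb11 was higher and in the other order, at 201 to 255 CPM over 3 control hashtags and 129 to 202 CPM over 3 experimental ones, ranges that overlap. Other layers went up from low levels: to 8.9999 CPM in spinous-like cells at 1 day (log2 ratio 2.64, interval 2.04 to 3.23), to 23.1 CPM in granular-like cells (1.47, interval 0.70 to 2.34) and to 25.2 CPM in upper follicle-like cells (1.27, interval 0.93 to 1.62). The experimental levels in those layers were below those of free RNA-like barcodes, at 58.4 CPM in control and 43.1 CPM in experimental libraries, and the part of free RNA was not tested. In the 1 day control library those barcodes differed from all cells passing filters, which had Serpinb11 at 14.0 CPM. Krt10 was at 1044 CPM in the barcodes and at 7073 CPM in those cells. At 1 day the levels of free RNA-like barcodes are thus not a clean measure of free RNA, for any member.

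Serpinb11 was also high in the Krt6b-led cells, where it was nearly absent from control. In cluster 19 it was at 2.28 CPM in control, from 1 UMI, and 67.2 CPM (58.4 to 76.8) in experimental cells at 1 day. In cluster 15 at 1 week it was at 133 CPM (124 to 143), and that cluster held 43.9% of its experimental UMIs. Over all keratinocytes Serpinb11 was at 14.4 and 33.1 CPM at 1 day (log2 ratio 1.20, interval 1.11 to 1.29) and at 14.99 and 57.5 CPM at 1 week (1.94, interval 1.82 to 2.07). With layers weighted equally, the ratio was 0.67 at 1 day and 0.21 at 1 week, both below 2-fold.

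**Figure D2:**
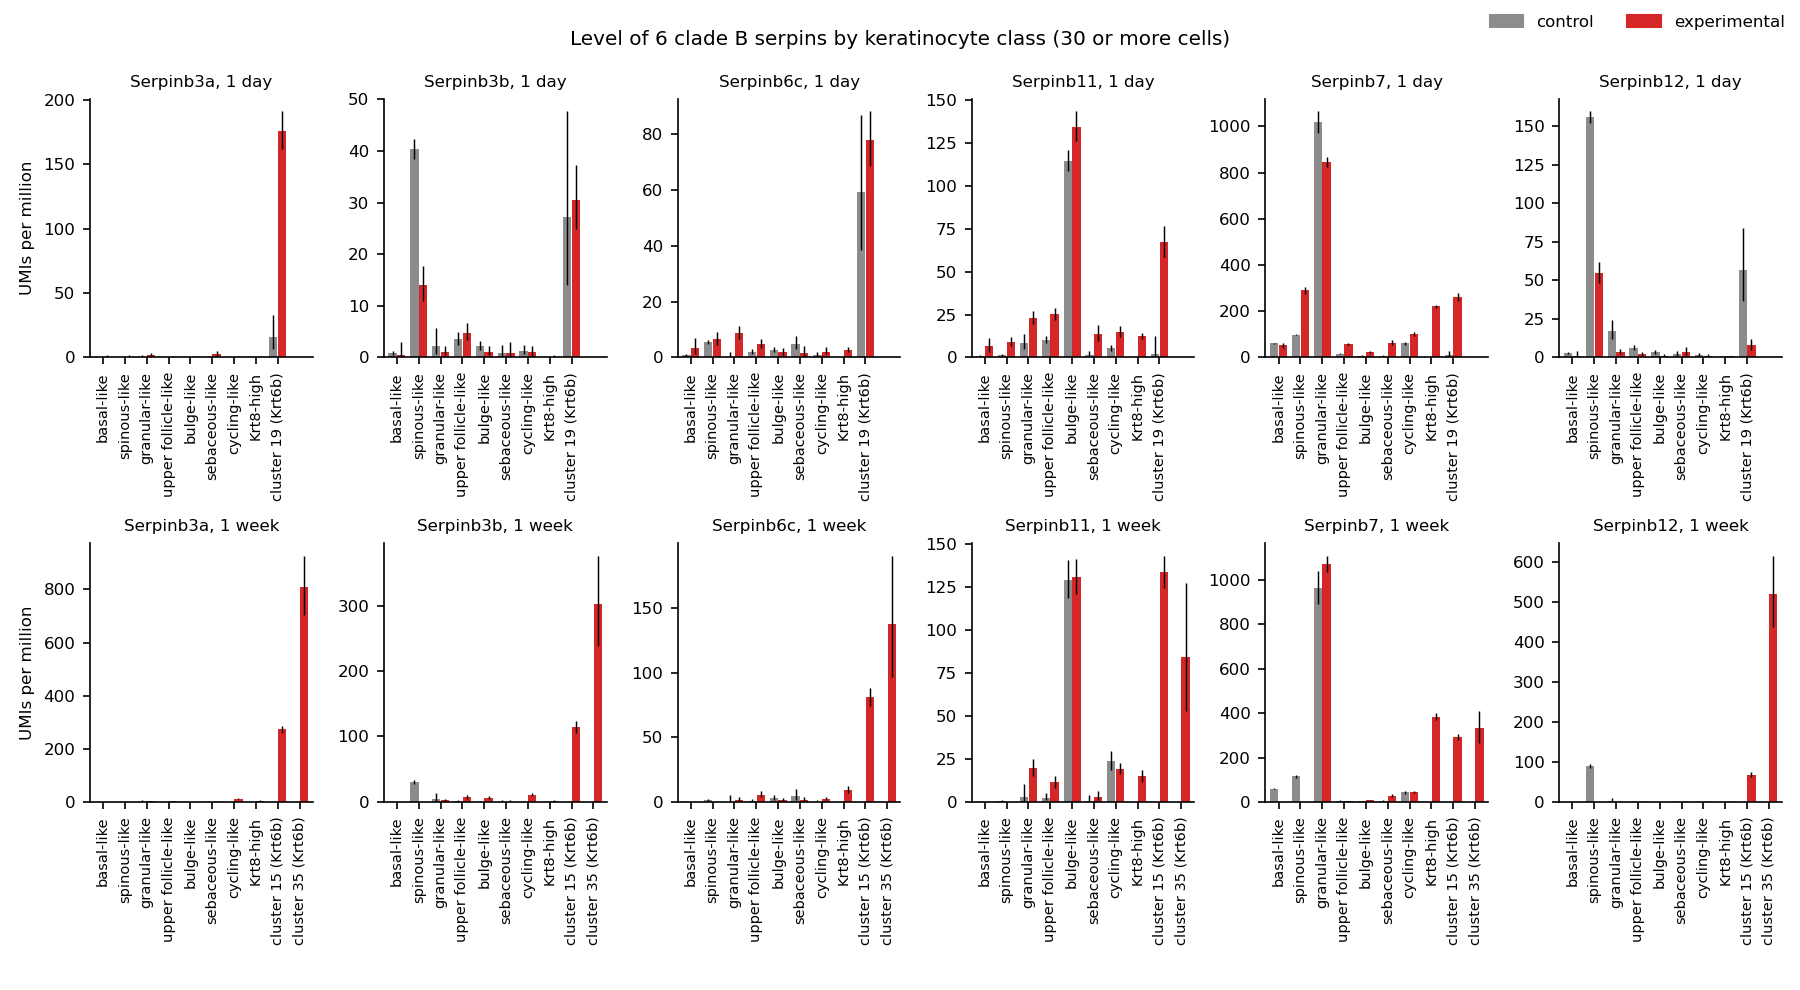
Level of 6 clade B serpins (UMIs per 1000000 gene UMIs, linear axis from 0) in each keratinocyte class of 30 or more cells, control in grey and experimental in red, at 1 day (top) and 1 week (bottom), with exact 95% intervals of counting error. Serpinb3a is confined on this scale to the Krt6b-led clusters 19, 15 and 35 among the classes drawn, Serpinb11 is at 115 and 135 CPM in bulge-like cells at 1 day, Serpinb7 is highest in granular-like cells, and Serpinb12 falls in spinous-like cells at 1 day.

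Serpinb12, an inhibitor of trypsin-like proteases, had the largest fall at 1 day. It stood at 59.6 CPM in control and 6.80 CPM in experimental keratinocytes, a log2 ratio of -3.13 (-3.27 to -3.0). With layers weighted equally it had a smaller fall, a log2 ratio of -1.51. In control skin it was a spinous-like gene at 156 CPM, against 3.03 CPM in basal-like, 17.3 CPM in granular-like and 3.34 CPM in bulge-like cells. Experimental spinous-like cells held 54.8 CPM, a log2 ratio of -1.51 (-1.69 to -1.33), and granular-like cells fell to 3.67 CPM (-2.24, interval -3.07 to -1.42). Over antibody hashtags, described further on, spinous-like Serpinb12 was at 153 to 203 CPM in control and 41.5 to 67.2 CPM in experimental cells, without overlap. The granular-like ranges of 0 to 25.4 and 3.76 to 5.81 CPM overlapped. The fall was thus also present within the spinous-like layer.

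The spinous-like class was made of different clusters in the 2 libraries at 1 day: 4141 of 5207 control cells were in cluster 2 and 544 of 958 experimental cells in cluster 11. Within cluster 2 Serpinb12 went from 107 to 38.1 CPM (log2 ratio -1.49, interval -1.88 to -1.13), and within cluster 11 from 255.6 to 63.5 CPM (-2.01, interval -2.22 to -1.80). Upper follicle-like and bulge-like cells also had lower Serpinb12, but their control levels of 6.14 and 3.34 CPM were below the 7.03 CPM of free RNA-like control barcodes. The basal-like control level given above was below it too. In cluster 19 the level was 56.9 CPM in control and 7.88 CPM in experimental cells, so there the direction was opposite to that of Serpinb3a.

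At 1 week the whole-keratinocyte value of Serpinb12 was held up by few cells. It stood at 31.02 and 18.3 CPM, a log2 ratio of -0.76 (-0.90 to -0.62), which did not reach 2-fold. The 413 UMIs of cluster 15 came from 27 of its 258 cells and made up 73.1% of the experimental total, while cluster 35 added 24.1% at a level of 519.7 CPM. Without the Krt6b-led clusters the log2 ratio was -5.76. The mix of layers enters this value: 1088 control but only 11 experimental cells were spinous-like at 1 week. Serpinb12 had no 1 week value with layers weighted equally, and the part of the mix was not tested. Control spinous-like cells at 1 week had 90.5 CPM, above the 31.02 CPM of all control keratinocytes, and they were above the whole at 1 day too.

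Serpinb13 (headpin), an inhibitor of cathepsins L and K, was sparse. It had 84 UMIs in control and 20 in experimental keratinocytes at 1 day (0.749 and 0.279 CPM), a log2 ratio of -1.42 (-2.21 to -0.71). The 1 week counts were 30 and 5, a log2 ratio of -1.87 (-3.59 to -0.49). In the control library at 1 day 84.5% of its UMIs lay in cluster 11, a spinous-like cluster. Within spinous-like cells at 1 day its log2 ratio was -0.38 (-1.74 to 0.73), an interval that includes no difference. With layers weighted equally the 1 day log2 ratio of Serpinb13 was -0.20, short of 2-fold.

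Serpinb7 (megsin), whose loss in humans causes a palmoplantar keratosis, was the granular-like member. Control granular-like cells had 1017 CPM at 1 day and 966 CPM at 1 week, against 99.04 and 115 CPM in spinous-like, 60.5 and 60.4 CPM in basal-like and 6.94 and 2.23 CPM in bulge-like cells. Over all keratinocytes it stood at 72.2 and 219 CPM at 1 day, a log2 ratio of 1.60 (1.56 to 1.64). At 1 week the levels were 80.5 and 188 CPM, and the log2 ratio was 1.22 (1.16 to 1.28). It was therefore above 2-fold at both times over all keratinocytes.

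Within granular-like cells Serpinb7 differed little: 844 CPM in experimental cells at 1 day, a log2 ratio of -0.27 (-0.35 to -0.19), and 1073 CPM at 1 week, 0.15 (0.03 to 0.27). Granular-like cells were 5.14% of the experimental and 0.898% of the control cells at 1 day, and 4.62% and 0.838% at 1 week. Spinous-like cells at 1 day rose to 290.3 CPM, a log2 ratio of 1.55 (1.46 to 1.64), while the ratio was 0.95 within cluster 2 and 0.75 within cluster 11. With layers weighted equally the log2 ratio of Serpinb7 was 0.18 at 1 day, over 7 layers, and 0.18 at 1 week, over the 5 that leave out basal-like and spinous-like cells. Cells found almost only in the experimental libraries carried intermediate levels: 221 CPM in Krt8-high cells at 1 day and 384 CPM at 1 week, 252 CPM in cluster 1 (4851 experimental and 10 control cells, led by Slpi), and 259.8 and 294 CPM in clusters 19 and 15.

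Serpinb7 also rose in classes where it was low in control, such as upper follicle-like (15.1 to 57.2 CPM), bulge-like (6.94 to 23.9 CPM) and sebaceous-like cells (5.44 to 62.5 CPM) at 1 day. Free RNA-like barcodes moved with them, at 16.6 CPM in control and 163 CPM in experimental libraries, and the part of free RNA in these low levels was not tested. T cell-like cells, which should lack the gene, had 5.83 CPM in control and 164 CPM in experimental cells. The experimental level was about that of free RNA-like barcodes there, and the control level was below theirs.

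Members past 2-fold were also counted layer by layer, beside the share of all genes past it in that layer. At 1 day, 2 of 11 members were higher (Serpinb11 and Serpinb7) and 2 of 11 lower (Serpinb12 and Serpinb3b) in spinous-like cells, where 5.38% and 5.04% of genes were. In basal-like cells 2 of 10 were higher (Serpinb11 and Serpinb6c; background 4.37%) and Serpinb12 was lower (4.9%). In granular-like cells 2 of 9 were higher (Serpinb11 and Serpinb6c; background 9.89%) and Serpinb12 was lower (3.32%). In upper follicle-like cells 3 of 11 were higher (Serpinb11, Serpinb7 and Serpinb6c; background 2.99%) and Serpinb12 was lower (1.66%). In bulge-like cells Serpinb7 was higher (3.12%) and 2 of 11, Serpinb12 and Serpinb3b, were lower (1.07%). Over antibody hashtags, described further on, bulge-like Serpinb3b had the other order, but on few UMIs, so no direction is read from it. It ran from 1.49 to 1.61 CPM in control and from 2.08 to 2.37 CPM in experimental cells. In cycling cells Serpinb11 alone of 8 was higher (4.84%) and 0 were lower (2.53%). In sebaceous-like cells 3 of 8 were higher (Serpinb11, Serpinb7 and Serpinb2; background 6.58%) and Serpinb6c was lower (2.23%). Serpinb12 was thus lower in 5 of these 7 classes and was not counted in the others. Its control levels in basal-like, upper follicle-like and bulge-like cells, given above, lay below the 7.03 CPM of free RNA-like control barcodes. Its granular-like hashtag ranges overlapped. Serpinb11 was higher in 6 of 7, though several of these levels lay below those of free RNA-like barcodes.

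At 1 week the same count covered the 5 layers with 50 or more cells in both libraries. In granular-like cells only Serpinb11 of 6 was higher (7.06%) and 0 were lower (8.42%). In upper follicle-like cells 4 of 10 were higher (Serpinb3b, Serpinb11, Serpinb6c and Serpinb6a; background 6.56%) and Serpinb7 was lower (2.26%). In bulge-like cells 2 of 10, Serpinb3b and Serpinb7, were higher (5.4%) and 0 lower (4.89%). In cycling cells 2 of 10, Serpinb3a and Serpinb3b, were higher (8.92%) and 3 lower (Serpinb2, Serpinb8 and Serpinb9; background 5.98%). In sebaceous-like cells 3 of 6 were higher (Serpinb7, Serpinb8 and Serpinb1c; background 9.51%) and 0 lower (5.75%). No member was thus higher, or lower, in all 5 layers.

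**Figure D3:**
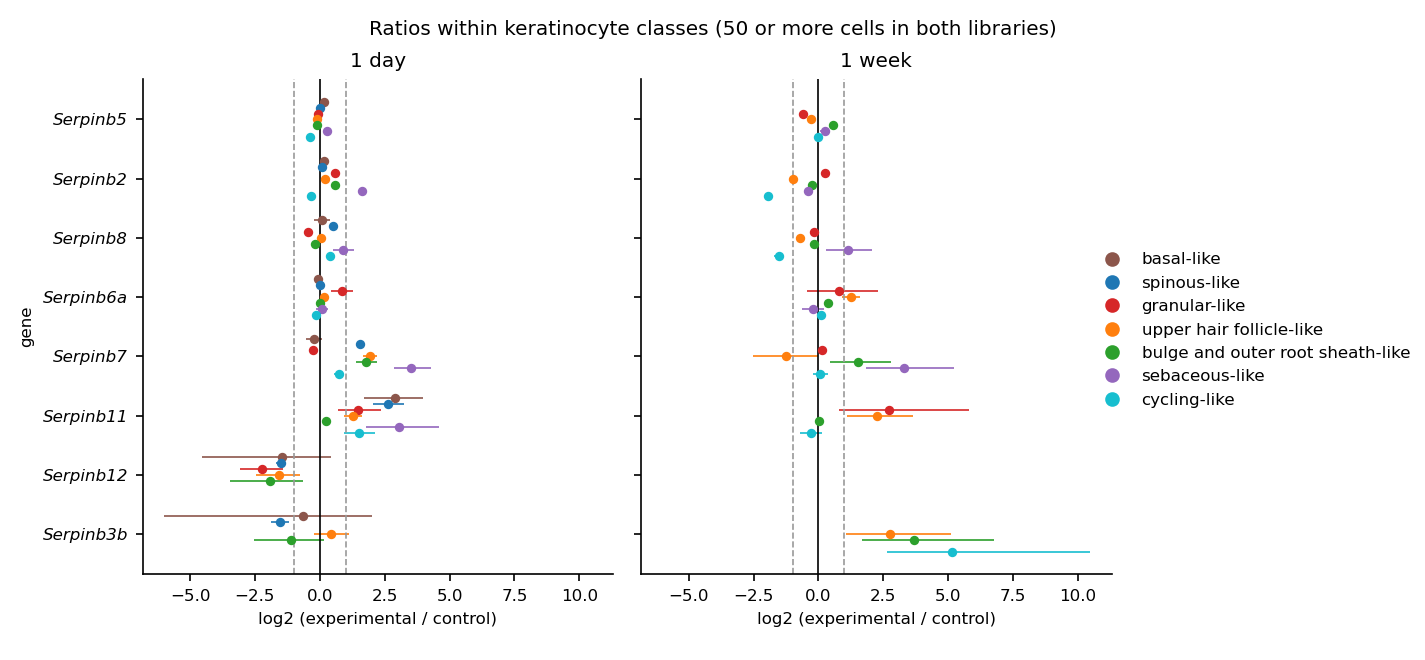
Log2 ratio of 8 clade B serpins within each keratinocyte class (colours), experimental over control, at 1 day and 1 week, for classes with 50 or more cells in both libraries, with exact 95% intervals of counting error and dashed lines at 2-fold. At 1 day Serpinb12 is negative in the spinous-like, granular-like, upper follicle-like and bulge-like classes, while Serpinb7 and Serpinb11 are positive in the spinous-like class. Serpinb7 lies near 0 in the granular-like class and Serpinb11 in the bulge-like class.

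Serpinb2 (PAI-2), an inhibitor of the plasminogen activators, was a gene of the basal-like layer. Control basal-like cells had 9844 CPM at 1 day, followed by 6789 CPM in spinous-like, 6677 CPM in cycling, 2982 CPM in granular-like, 2877 CPM in upper follicle-like and 584 CPM in bulge-like cells. Neighbours in this order differed beyond counting error except granular-like and upper follicle-like cells, whose intervals overlapped. At 1 week the levels ran from 11816 CPM in basal-like cells to 186 CPM in bulge-like cells. At 1 day the libraries were close over all keratinocytes, with 5527 CPM in control and 5703 CPM in experimental cells (log2 ratio 0.05, interval 0.04 to 0.05). Their mix of layers differed, with basal-like cells at 21.2% of control and 2.26% of experimental cells. With layers weighted equally the log2 ratio was 0.15. Classes went both ways, with sebaceous-like cells more than 2-fold higher, as counted above, and cycling cells lower. At 1 week Serpinb2 was at 7117 CPM in control and 1748 CPM in experimental keratinocytes, a log2 ratio of -2.03 (-2.04 to -2.01).

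The fall of Serpinb2 at 1 week was uneven over the layers. Granular-like cells were at 2568 and 3043 CPM (log2 ratio 0.24, interval 0.17 to 0.32), and bulge-like cells at 186 and 155 CPM (-0.26, interval -0.41 to -0.11). Upper follicle-like cells were at 2641 and 1335 CPM (-0.98, interval -1.04 to -0.93), and cycling cells at 5344 and 1374 CPM (-1.96, interval -2.0 to -1.92). Only the cycling class among these fell by 2-fold or more, and its make-up differed between the libraries. At Leiden resolution 2, a finer clustering, 157 control and 8 experimental cycling cells formed 1 cluster, and 0 control and 153 experimental cells another that was led by Nppb and Krt8. The part of this make-up in the fall was not tested. The 15 experimental basal-like cells had 4105 CPM, a log2 ratio of -1.53 (-1.64 to -1.41), and Krt8-high experimental cells had 7665 CPM at 1 week and 10940.5 CPM at 1 day. Weighted equally over the 5 layers with 50 or more cells in both libraries, basal-like and spinous-like not among them, the log2 ratio was -0.84, short of 2-fold. Free RNA-like barcodes had Serpinb2 at 6530.4 CPM in control and 2204 CPM in experimental libraries at 1 week and at 1727 and 5474 CPM at 1 day.

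Serpinb5 (maspin), a non-inhibitory member known as a tumour suppressor of epithelia, was present in every keratinocyte class and differed little. Control levels at 1 day ran from 480.4 CPM in sebaceous-like to 2113 CPM in spinous-like cells. Over all keratinocytes it was at 1515 and 1364 CPM at 1 day (log2 ratio -0.15, interval -0.16 to -0.14) and at 1187 and 832 CPM at 1 week (-0.51, interval -0.53 to -0.49). Within spinous-like cells at 1 day the levels were 2113 and 2139 CPM (0.02, interval -0.01 to 0.05). Bulge-like cells at 1 week went the other way from the whole, from 521 to 768 CPM (0.56, interval 0.48 to 0.64).

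Serpinb8, an inhibitor of furin-like proteases, followed the granular-like layer, at 326 CPM in control at 1 day and 461 CPM at 1 week, against 46.8 and 75.8 CPM in basal-like cells. Its log2 ratio over all keratinocytes was 0.28 (0.24 to 0.32) at 1 day (110.3 and 134 CPM) and -0.06 (-0.12 to 0.00) at 1 week (135 and 129.6 CPM). Among the layers compared, only cycling cells at 1 week fell by 2-fold or more, in the class whose make-up differed as given above, from 177 to 61.2 CPM (-1.53, interval -1.72 to -1.35), and sebaceous-like cells at 1 week rose from 11.8 to 26.1 CPM (1.14, interval 0.30 to 2.06). The sebaceous-like class at 1 week was mostly cluster 22 in control and cluster 17 in the experimental library, where 243 cells were experimental and 0 control.

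Serpinb6a, an inhibitor of cathepsin G and other serine proteases, was lowest in the granular-like layer. At 1 day it was at 31.8 CPM in granular-like, 65.2 CPM in spinous-like, 290.1 CPM in basal-like and 389 CPM in cycling control cells. It stood at 171 and 149 CPM over all keratinocytes at 1 day (log2 ratio -0.20, interval -0.23 to -0.16) and at 163 and 203 CPM at 1 week (0.31, interval 0.27 to 0.36). Upper follicle-like cells at 1 week were the only cell class past 2-fold among those compared, from 31.3 to 75.1 CPM (1.26, interval 0.92 to 1.61).

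Serpinb1a, an inhibitor of neutrophil elastase and cathepsin G, was at 13.1 and 14.1 CPM in keratinocytes at 1 day (log2 ratio 0.10, interval -0.01 to 0.22) and at 12.2 and 23.6 CPM at 1 week (0.95, interval 0.80 to 1.11), just short of 2-fold. With the 5 layers weighted equally the 1 week ratio of Serpinb1a was 0.074. Its paralogue Serpinb1c was counted only at 1 week, with 8 control and 25 experimental UMIs in keratinocytes, a log2 ratio of 2.36 (1.17 to 3.72). Sebaceous-like cells held 7 and 24 of those UMIs. Sebaceous-like cells were 2% of the control and 8.44% of the experimental cells at 1 week.

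**Figure D4:**
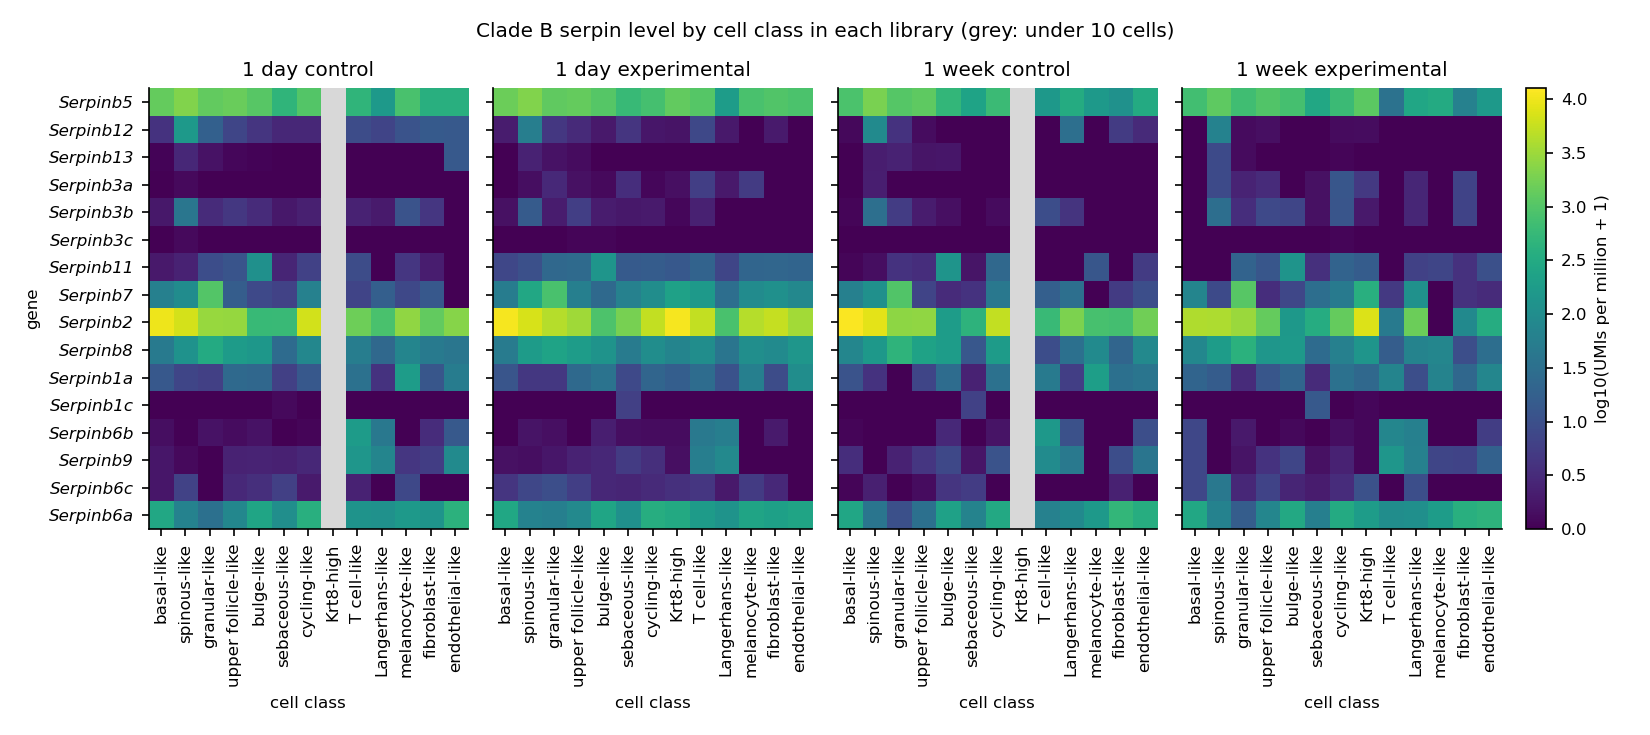
Level of the 16 counted clade B serpins (vertical axis) in each cell class (horizontal axis) of the 4 libraries, as colour for log10 of UMIs per 1000000 gene UMIs plus 1, with classes under 10 cells in grey. In the 1 day control panel Serpinb2 is brightest in basal-like, Serpinb12 in spinous-like, Serpinb7 in granular-like and Serpinb11 in bulge-like cells, and Serpinb6b and Serpinb9 in T cell-like cells.

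Antibody counts in the 1 day libraries allowed cells to be assigned to hashtags, 60.8% of control and 36.7% of experimental cells, on 3 hashtags each. The labels do not say what a hashtag holds, so these values are a description. In keratinocytes Serpinb3a ran from 0 to 0.442 CPM over the control hashtags and from 1.82 to 16.9 CPM over the experimental ones. Serpinb12 ran from 66.0 to 76.6 CPM in control and from 5.72 to 11.2 CPM in experimental hashtags, and Serpinb7 from 52.0 to 105 and from 204.5 to 244. The ranges also did not overlap for Serpinb11, Serpinb13, Serpinb3b, Serpinb5 and Serpinb6a, whereas those of Serpinb6c, Serpinb2, Serpinb8, Serpinb1a, Serpinb6b and Serpinb9 overlapped. The share of all genes without overlap was not measured, so this is not a result about the members. The assigned cells were also not an even sample. The control level of Serpinb12 over all keratinocytes, given above, lay below all 3 control hashtags. The third experimental hashtag, with the lowest Serpinb3a, had 13 cells in cluster 19 against 62 and 123 for the other two, and within that cluster the 3 experimental hashtags lay between 187 and 255.8 CPM.

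Outside the keratinocytes the immune-cell members stood out. Serpinb6b, which inhibits granzyme A, was at 176 CPM in control T cell-like cells at 1 day and at 43.4 CPM in Langerhans-like cells, against 0.312 CPM in keratinocytes. Serpinb9, the granzyme B inhibitor that protects cytotoxic cells from their own granules, was at 144 CPM in T cell-like, 71.7 CPM in Langerhans-like cells and 0.973 CPM in keratinocytes. In keratinocytes neither passed 2-fold, with log2 ratios of 0.10 (-0.71 to 0.89) and 0.25 (-0.18 to 0.68) at 1 day and -0.51 (-1.82 to 0.68) and -0.27 (-0.69 to 0.13) at 1 week.

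T cell-like cells at 1 day had lower levels of both in the experimental library. Serpinb6b was at 44.5 CPM, a log2 ratio of -1.99 (-2.40 to -1.59), and Serpinb9 at 56.0 CPM, -1.37 (-1.75 to -0.99), so 2 of 10 counted members were 2-fold or more lower, against 13.3% of 8484 genes. Serpinb7, Serpinb2, Serpinb11 and Serpinb5 were the 4 of 10 that were 2-fold or more higher, against 10.4% of genes. Keratinocyte RNA moved with this result: Krt5, Krt14, Krt1 and Krt10 summed to 4415 CPM in control and 9774 CPM in experimental T cell-like cells, and Serpinb2 was at 1554 and 5235 CPM. The markers that named the class fell as well: 12 of 12 were 2-fold or more lower at 1 day, and their sum was at 10251 CPM in control and 2594 CPM in experimental cells, a log2 ratio of -1.98. Median UMIs per cell were 1242 and 2843.5. The part of these shifts in the lower Serpinb6b and Serpinb9 was not tested. At 1 week the direction for Serpinb6b was the same, at 155 and 76.1 CPM and a log2 ratio of -1.02 (-1.81 to -0.29), one of 3 of 6 counted members 2-fold or more lower (background 6.23%) beside Serpinb2 and Serpinb5, while 0 of 6 were higher (5.22%). Serpinb9 was at 92.7 and 141 CPM, a log2 ratio of 0.60 (-0.07 to 1.26), the keratin sum was at 1941 and 872 CPM, and 1 of 12 markers was 2-fold or more lower. In Langerhans-like cells Serpinb6b was at 9.49 and 61.2 CPM at 1 week, from 6 and 35 UMIs, a log2 ratio of 2.69 (1.42 to 4.23). Other values of the class shifted too at 1 week: the keratin sum was at 8645 and 3589 CPM, median UMIs per cell were 3914.5 and 7460, and 1 of 9 counted markers was 2-fold or more lower. Removed doublet calls placed in that cluster were 30.2% of its cells and calls together. The part of these in the result was not tested. At 1 day the ratio there was 0.34 (-0.24 to 0.94).

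Melanocyte-like cells carried Serpinb1a, at 182 CPM in control and 58.9 CPM in experimental cells at 1 day from 53 and 14 UMIs, a log2 ratio of -1.63 (-2.59 to -0.76). The 1 week levels were 196 and 68.2 CPM from 17 and 11 UMIs, a log2 ratio of -1.52 (-2.76 to -0.34), so the level was lower in the experimental library with both kits, on few UMIs. The markers of the class moved the same way, with 3 of 7 counted lower by 2-fold at 1 day and 4 of 8 at 1 week and log2 ratios of their sum of -1.03 and -1.18. Their part in the result was not tested. Serpinb6a, present in keratinocytes as given above, was also present in stromal classes at 1 week. It was at 520.2 and 387 CPM in fibroblast-like and 352 and 452 CPM in endothelial-like cells, with log2 ratios of -0.43 (-0.72 to -0.14) and 0.36 (0.06 to 0.67). None of these Serpinb6a ratios reached 2-fold.

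**Figure D5:**
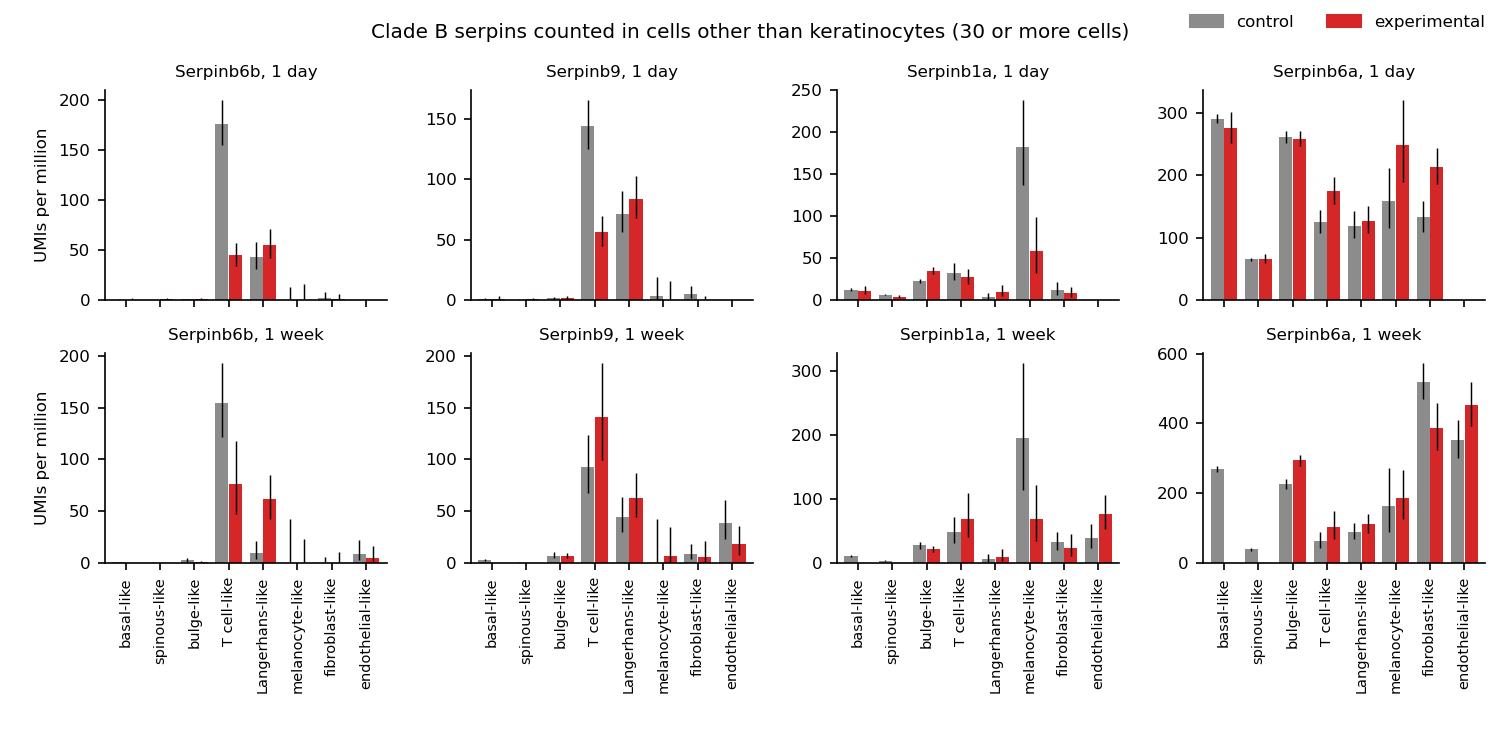
Level of 4 clade B serpins (UMIs per 1000000 gene UMIs) in cell classes other than keratinocytes, with 3 keratinocyte classes beside them, control in grey and experimental in red, with exact 95% intervals of counting error, for classes of 30 or more cells. Serpinb6b and Serpinb9 are highest in T cell-like and Langerhans-like cells, and Serpinb1a is highest in melanocyte-like cells of the control libraries.

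The proteases that clade B serpins are known to inhibit, or that act in the same settings, were followed in keratinocytes as a list of 30 genes. At 1 day 9 of 23 counted were 2-fold or more higher and 1 lower, where 6.18% and 3.36% of all genes were. At 1 week 13 of 24 were higher and 4 lower, where 11.4% and 6.9% of all genes were. The median log2 ratios were 0.77 and 1.20. Within layers the medians were smaller. Upper follicle-like cells had 6 of 18 higher at 1 day (2.99% of all genes) and 6 of 19 at 1 week (6.56%), with medians of 0.52 and 0.58. In bulge-like cells 5 of 19 and 7 of 18 were higher (3.12% and 5.4%), with medians of 0.50 and 0.94. In these layers 0 were lower, where 1.07% to 4.89% of genes were. Klk7 and Casp14 of this list are also markers used to name granular-like cells. Among the proteases, Klk6, a trypsin-like kallikrein, stood at 5.65 and 88.4 CPM over all keratinocytes at 1 day. The 1 week values were 3.504 and 737 CPM (log2 ratios 3.97 and 7.72). Klk7, the chymotrypsin-like kallikrein of corneocyte shedding, stood at 338 and 3196 CPM at 1 day, and the 1 week values were 225 and 2037 CPM (3.24 and 3.18). Klk10 and Klk13, other epidermal kallikreins, reached 400.3 and 61.8 CPM in experimental keratinocytes at 1 week (4.68 and 7.61). Ctsl, the cathepsin L that Serpinb13 can block, was chosen after its values were seen, and was at 149 and 211 CPM at 1 day (0.50) and at 145 and 612 CPM at 1 week (2.07).

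Protease inhibitors of other families were also followed over all keratinocytes. Of the 21 counted, 11 at 1 day and 12 at 1 week were 2-fold or more higher and 0 were lower at either time, with median log2 ratios of 1.32 and 1.61. The shares of all genes were 6.18% and 11.4% higher and 3.36% and 6.9% lower. Within layers the counts were smaller. Upper follicle-like cells had 6 of 16 higher at 1 day (2.99% of all genes there) and 1 of 14 at 1 week (6.56%), the latter about the share of all genes. Their medians were 0.29 and 0.15, and 0 were lower (1.66% and 2.26%). In bulge-like cells 4 of 17 and 3 of 13 were higher (3.12% and 5.4%), 0 and 1 lower (1.07% and 4.89%), with medians of 0.42 and 0.51. Slpi, a secreted inhibitor of elastase, stood at 5.67 and 385 CPM at 1 day, and the 1 week values were 7.27 and 282 CPM (log2 ratios 6.08 and 5.28). Csta1, of the stefins that block cysteine cathepsins, was at 27.3 and 123 CPM at 1 day, and the 1 week values were 26.9 and 137 CPM (2.18 and 2.35). Stfa3, another stefin and among the leading genes of cluster 19, was at 26.6 and 69.7 CPM at 1 day (1.39) and at 6.22 and 182 CPM at 1 week (4.87).

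For the last lists, too, the shares of all genes were 6.18% higher and 3.36% lower at 1 day, and 11.4% and 6.9% at 1 week. Serpins of other clades were mixed: 1 of 13 counted was higher and 0 lower at 1 day, and 4 of 13 were higher and 3 lower at 1 week, with median log2 ratios of 0.33 and 0.24. Serpina3i stood at 7.80 and 72.9 CPM at 1 week (3.22). Serpina12, the vaspin that inhibits kallikrein 7, stood at 21.9 and 7.94 CPM at 1 week (-1.46). Of the genes that flank the clusters on chromosomes 1 and 13, 0 of 18 were higher and 1 lower at 1 day, and 2 of 18 were higher and 1 lower at 1 week, with median log2 ratios of -0.11 and 0.25. In bulge-like cells 1 of 17 was higher at 1 day and 5 of 17 at 1 week (3.12% and 5.4% of all genes there), and 0 were lower. In upper follicle-like cells 1 of 17 and 3 of 15 were higher (2.99% and 6.56%), and 1 and 0 lower (1.66% and 2.26%). Over all keratinocytes the neighbours Foxc1 and Foxq1, forkhead transcription factor genes beside the chromosome 13 cluster, had 1 week log2 ratios of 1.03 and 1.03.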

How the data were processed

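Single-cell RNA of mouse epidermis was measured in 4 libraries, 1 per group. The files hold UMI counts per gene and barcode as deposited by the authors, and antibody counts in the same matrices. Cell Ranger 5.0.1, Seurat and mm10 are named in the submitters' processing notes, and the kits in the labels' protocols. Barcodes were kept at 500 or more UMIs and 300 or more genes, with a mitochondrial share of at most 15%. Doublets were removed at 0.8% per 1000 barcodes, because the caller's automatic threshold marked 0% to 0.0402% or gave none. Cells of a time point were clustered together (scanpy 1.11.5, 2000 variable genes without serpins or listed genes, 30 components, 15 neighbours, leidenalg 0.10.2, resolution 1) and named from markers. UMIs were summed per library and class and scaled to CPM. Intervals are exact (scipy 1.17.1), and on simulated data they covered 95.7% of 14766 genes at 1 day and 95.5% of 14427 at 1 week. The simulated counts were drawn from the Poisson model that the intervals assume, so this checks the calculation only. UMIs gathered in few cells were not simulated.

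Members with 200 or more keratinocyte UMIs, or past 2-fold with an interval excluding no change, were named with values, and up to 5 genes of each other list by largest ratio at 20 CPM or more. The members and lists were chosen with earlier results of these data known. Leaving out barcodes resembling free RNA at 1 week (they stayed in at 1 day), the limits for naming clusters and a pair of alternatives were chosen after the data were seen. Alternatives covered scaling (edgeR 4.0.16 TMM, DESeq2 1.42.0 size factors), UMI minimums, fold, clustering resolution and depth. Protein sequences were not used here.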

Additional observations from a re-analysis of the deposited data

Results flagged for a closer look

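Of 14 members compared in keratinocytes at both times, 4 had log2 ratios of opposite sign at 1 day and 1 week with counting intervals that left out 0 at both. The share of all genes with such opposite signs was not measured, so 4 of 14 is not a result about the members. Serpinb6b and Serpinb9 also had opposite signs, with intervals that included 0. The differences (1 week minus 1 day) were 3.52 for Serpinb3b, -2.07 for Serpinb2, -0.34 for Serpinb8 and 0.51 for Serpinb6a. These differences were not tested, and the kits differed between the times, so time and kit cannot be told apart. Without the Krt6b-led clusters the 1 week ratio of Serpinb8 was 0.059, no longer opposite in sign to its 1 day ratio. The 1 week ratio of Serpinb3b was -0.83 without the Krt6b-led clusters and 2.12 with layers weighted equally.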

How the results depend on the processing

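No paired analysis was possible because each group was 1 library. In keratinocytes 3 of the 7 members past 2-fold at 1 day, and 4 of the 9 at 1 week, stayed past it under each alternative that counted them. At 1 week 3 of those 4 (Serpinb3a, Serpinb3c and Serpinb13) had no value with layers weighted equally, which took in 5 layers there and 7 at 1 day, and Serpinb3c none without the Krt6b-led clusters. The number higher at 1 day was 7 with 1 or more UMIs, 1 at 4-fold and 1 with layers weighted equally. At 1 week it was 4 at 4-fold, 2 with layers weighted equally (11 members counted) and 4 without the Krt6b-led clusters, and the number lower was 1 with 100 or more UMIs, 1 at 4-fold, 0 with layers weighted equally and 3 without the Krt6b-led clusters. The 1 week median of 0.63 became 1.09 with 1 or more UMIs, 0.51 with DESeq2 size factors, 0.52 with TMM, 0.39 as a mean of single-cell CPM, 0.18 with layers weighted equally and 0.059 without the Krt6b-led clusters. The median of all genes moved from 0.11 to 0.00 with TMM and to -0.02 with DESeq2 at 1 week. Serpinb3b at 1 week reversed to -0.83 without the Krt6b-led clusters (2.12 with layers weighted equally), and Serpinb2 in smooth muscle or pericyte-like cells to 0.18 at resolution 2. The cause was not tested. Within classes 70 of 76 ratios past 2-fold stayed past it. At 3000 or more UMIs per barcode 26 of 325 levels moved by over 1.5 times. With 1 library a group, variation between animals was not measured. Equal weighting and leaving out the Krt6b-led clusters were chosen after the data were seen. The counts under the alternatives are given without the share of all genes beside them.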
